A study of Mus musculus with 12 samples.

Results

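The cytosolic ribosomal protein genes encode the proteins of the large (Rpl) and small (Rps) subunits of the ribosome that translates nuclear-encoded mRNA. They were taken as every gene of the deposited tables whose name is Rpl or Rps followed by a number, or by p0 to p2 for the stalk proteins, with at most 1 of the letters a, x or l behind it. This rule found 82 of the 57180 genes, 51 of the large and 31 of the small subunit. By annotation 80 of them are protein-coding, and Rpl32l and Rpl6l, counted with the large subunit by name, are processed pseudogenes. The rule left out ribosomal proteins with other names (Rpsa, Fau, Rack1 and others), which are described separately. The RNA came from 12 livers, 1 per mouse, and was sequenced as total RNA after removal of ribosomal RNA, with 3 livers in each of 4 groups: Het females (Het_F), Het males (Het_M), KO females (KO_F) and KO males (KO_M). All 12 mice lacked Csa, the transcription-coupled repair gene annotated as Ercc8, and all were injected as newborns into the cerebral ventricles with AAV9-CSA, a vector with the human CSA cDNA behind the ubiquitous chicken β-actin promoter. The Het mice were treated littermates of matched age with 1 intact copy of Xpa, a nucleotide excision repair gene. The KO mice were CX mice at their humane endpoint, described in the study's results as lacking both Csa and Xpa, although its methods write Xpa+/+ for them. Groups here follow the names KO and Het that the livers carry. The ages of the single mice are not given in the sources used here, and genotype and disease stage cannot be told apart in this design. Each comparison asked which of these genes differed between KO and Het livers, in females, in males and over both sexes.

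Ribosomal proteins are made in near-equal numbers, since each mature ribosome holds 1 copy of most of them, and their mRNAs are among the most abundant in many cell types. In mammals these mRNAs typically begin with a 5′ terminal oligopyrimidine (TOP) tract, a C followed by a run of pyrimidines, through which the growth regulator mTORC1 and the RNA-binding protein LARP1 control their translation together. Hepatocytes, which secrete most plasma proteins, are rich in ribosomes. Some ribosomal proteins also act outside the ribosome, as RPL5 and RPL11 do when they bind MDM2 and stabilise p53.

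The starts of 5 genes are shown because the values below turn on them or on their paralogs: Rpl12, among the largest rises, Rplp2 of the stalk, Rps6, the classical S6 kinase substrate, and the paralogs Rps27 and Rps27l, of which Rps27l was called lower and Rps27 was not called. Each stretch has 15 bases before the start of the RefSeq transcript and 15 bases from the start on, 5′ to 3′ on the strand of the gene, and capitals mark the nearest tract that begins with C and goes on with at least 4 pyrimidines (C or T). Positions are on GRCm38.p6, the build of the RefSeq promoter table, and not on GRCm39, the build of the expression tables. They are chr2:32961697-32961726 (plus strand) for Rpl12, chr7:141447636-141447665 (plus) for Rplp2, chr4:86857353-86857382 (minus) for Rps6, chr3:90213634-90213663 (minus) for Rps27 and chr9:66946071-66946100 (plus) for Rps27l, for which the table lists a further start.
Rpl12: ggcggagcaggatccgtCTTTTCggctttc
Rplp2: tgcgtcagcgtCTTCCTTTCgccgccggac
Rps6: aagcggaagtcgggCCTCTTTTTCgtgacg
Rps27: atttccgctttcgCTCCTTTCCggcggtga
Rps27l: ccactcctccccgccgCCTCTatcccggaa
The promoter table held 60 of the 82 genes. A C followed by at least 4 pyrimidines stood at the first base of an annotated start in 23.3% of those 60 genes. The share was 2.96% among the 11980 other tested genes in the table. Tracts that began upstream and ran through the start were included. Within 10 bases on either side of a start such a C was found in 65% of the 60 genes and in 37.4% of the others, and in 30.7% of all 32851 promoters. Each of the 5 starts shown has such a tract. Rplp0, Rpl5, Rps16 and Rpl41, also described below, had none within 10 bases of the annotated start, and neither had the further start of Rps27l. The search covered the strand of the gene only, and a match describes the letters of this window, not a mapped transcript start.

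Ribosomal protein mRNA was highly expressed in all 12 livers. Of the 82 genes, 76 had a mean level between 59.1 and 390 TPM (a gene's share of all transcripts, scaled to a fixed total and corrected for transcript length). Their mean estimated counts per liver ran from 1555 to 13800. The 3 genes of highest level were Rplp1 (390 TPM), Rpl13a (383 TPM) and Rpl10 (382 TPM). Rps4l, Rpl32l and Rpl6l were below 5 TPM, at 4.58, 1.45 and 1.08 TPM. Rpl3l, Rpl10l and Rpl39l, paralogs known for expression in muscle or testis, did not reach the minimum of 5 reads in 3 livers and were not tested. Rpl10l was at 0 counts in all 12 livers. The remaining 79 genes were tested.

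Summed over the 82 genes, ribosomal protein mRNA was higher in KO than in Het livers. The sums were 11857, 12273 and 13287 TPM in Het_F, 10276, 12101 and 10948 TPM in Het_M, 17490, 14194 and 13344 TPM in KO_F, and 13926, 13383 and 15860 TPM in KO_M. Every KO liver was above every Het liver, although the lowest KO_F liver lay close to the highest Het_F liver. The means were 11790 ± 1056 TPM for Het and 14699 ± 1647 TPM for KO (SD, n = 6 each), a ratio of 1.25. The ratio was 1.20 in females and 1.30 in males. The sums correspond to 1.03% to 1.33% of all TPM in Het and 1.33% to 1.75% in KO livers. The 7SL and 7SK RNAs, noncoding RNAs that pass ribosomal RNA depletion, held between 50.1% and 59.9% of all TPM in a liver. With them left out, a choice made after seeing these shares, the ranges were 24532 to 30663 TPM in Het and 31602 to 35571 TPM in KO, with a ratio of 1.24. In CPM, the reads scaled to a fixed library size by TMM with no correction for length, the ratio was also 1.24. The CPM ratio was 1.26 in females and 1.21 in males, so the order of the sexes differed between TPM and CPM. The ranges in CPM overlapped, from 8260 to 9926 CPM in Het and from 9808 to 11736 CPM in KO. Since these are bulk livers, a change in the share of a cell type and a change in the RNA per cell cannot be told apart.

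**Figure D1:**
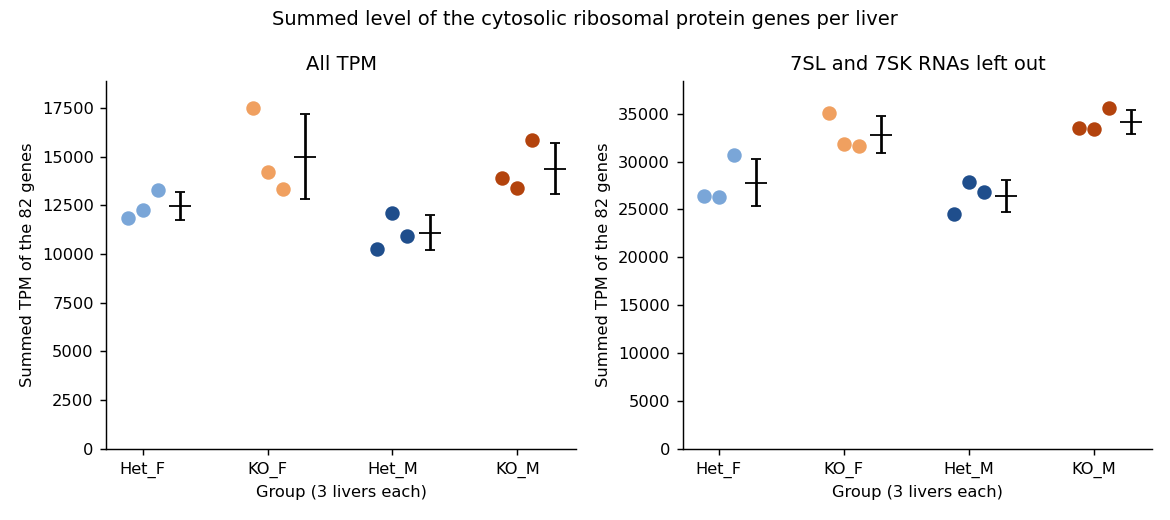
Summed TPM of the 82 cytosolic ribosomal protein genes (y axis, TPM) in each liver of the 4 groups (x axis); points are livers, dashes with bars are the mean and SD of 3 livers, and the right panel leaves out the 7SL and 7SK RNAs. In both panels every KO liver (13344 to 17490 TPM on the left) is above every Het liver (10276 to 13287 TPM).

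The rise was shared by both subunits. The large subunit genes summed to 1.51 times the TPM of the small subunit genes in Het livers (1.48 to 1.55) and likewise 1.51 times in KO livers (1.48 to 1.54). Across the 76 genes above 50 TPM the Spearman correlation 0.954 between mean Het and mean KO levels, as a description over genes, which share their libraries and are not independent.

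Gene by gene, 40 of the 79 tested genes (50.6%) were called higher in KO livers over both sexes, by edgeR's quasi-likelihood test at a Benjamini-Hochberg adjusted p under 0.05 across all 19355 tested genes. Among all tested genes 11.9% were called higher. Rps27l alone was called lower, beside 10.7% of all tested genes. The median log2 fold change of the 79 genes was 0.29 (1.23-fold), with 0.29 for the 48 tested large subunit genes and 0.33 for the 31 small subunit genes, beside 0.01 over all tested genes. The called rises ran from 0.26 to 0.67 on the log2 scale, with a median standard error (SE) of 0.09 over the 79 genes. The fold change was above 0 in 75 genes and below 0 in 4. Before adjustment, p was under 0.05 for 59 genes with a rise and 2 with a fall, 61 of 79 in all, beside 6995 of the 19355 tested genes. In 24 genes every KO liver had more CPM than every Het liver, which held for 4.57% of all tested genes, and 23 of these 24 were called higher, all but Rpl7. Rps27l was the single gene with every KO liver below every Het liver, which held for 4.98% of all tested genes.

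**Figure D2:**
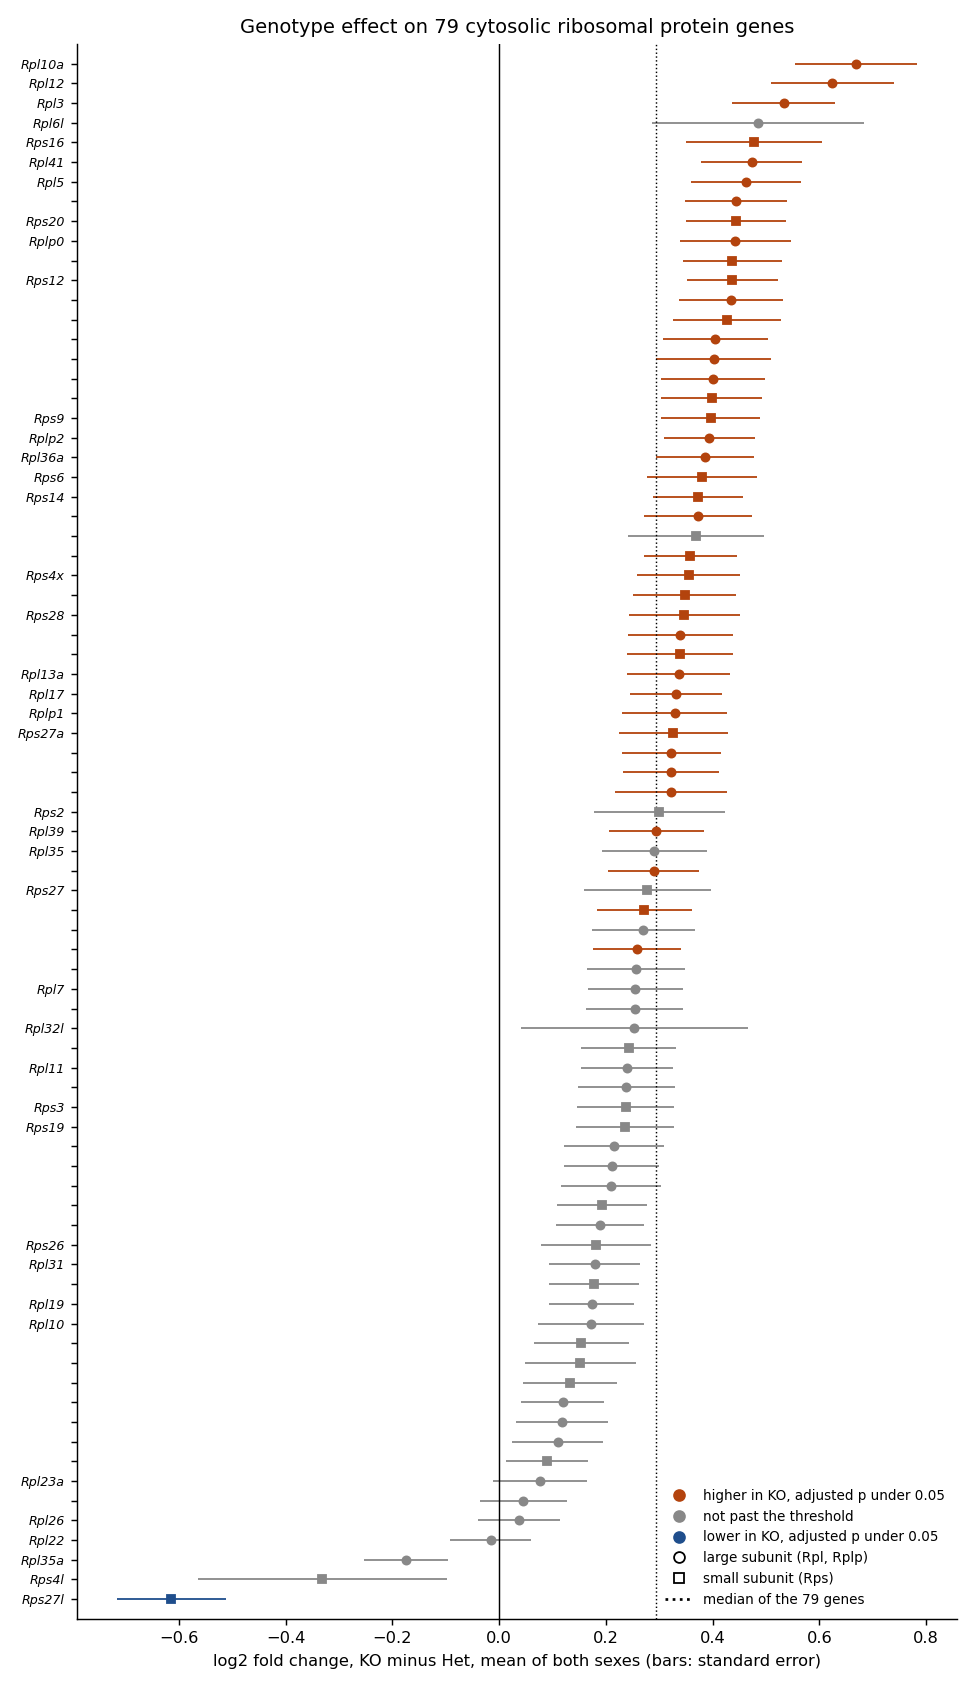
log2 fold change of KO over Het livers, as the mean of both sexes (x axis), for the 79 tested genes in order of size (y axis, with the names of genes described in the text); bars are the SE, circles are large and squares small subunit genes, colour gives the call at an adjusted p of 0.05, and the dotted line is the median of 0.29. Most genes lie between 0.1 and 0.5, with Rpl10a and Rpl12 above 0.6 and Rps27l alone called below 0.

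The calls depended on single livers more than the direction did. Of the 41 called genes, 23 were called whichever liver was left out, and all 41 kept their direction under every alternative run. Livers are named by group and mouse number. The number called was 25 without Het_F_111, 26 without Het_M_119, and 24 without either Het_M_137 or KO_M_136. It was between 32 and 49 without any other liver. The median log2 fold change stayed between 0.26 and 0.34 in all these fits.

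The largest rise was that of Rpl10a, a large subunit protein at the E site. Its levels were 88.5, 106 and 113 CPM in Het_F, 107.8, 130 and 99.6 CPM in Het_M, 213, 179 and 147 CPM in KO_F, and 153, 160 and 174 CPM in KO_M. No KO liver overlapped with a Het liver. The log2 fold change was 0.67 ± 0.11 (SE, 1.59-fold, adjusted p = 0.00221). Rpl12, which binds at the base of the stalk, had 88.3, 97.6 and 117 CPM in Het_F, 105, 124 and 108.3 CPM in Het_M, 175, 182 and 134 CPM in KO_F, and 141, 165 and 188 CPM in KO_M. Its log2 fold change was 0.62 ± 0.12 (adjusted p = 0.00341), again without overlap. Rpl3, which reaches towards the peptidyl transferase centre, had 181, 193 and 211 CPM in Het_F, 193, 193 and 176 CPM in Het_M, 312, 282 and 251 CPM in KO_F, and 265, 240 and 307 CPM in KO_M. The KO and Het livers were separate in each sex, and the log2 fold change was 0.53 ± 0.10 (adjusted p = 0.00299). Rps16 of the small subunit head (Het 32.3 to 53 CPM, median 40.8; KO 45.1 to 64.1 CPM, median 59.8) rose by 0.48 ± 0.13 with overlapping groups (adjusted p = 0.0195). Rpl41, whose protein is among the shortest known, ranged from 96.9 to 130 CPM in Het (median 114) and from 151 to 172 CPM in KO livers (median 157), with no overlap and a log2 fold change of 0.47 ± 0.09 (adjusted p = 0.00503). These 5 calls remained without any single liver.

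**Figure D3:**
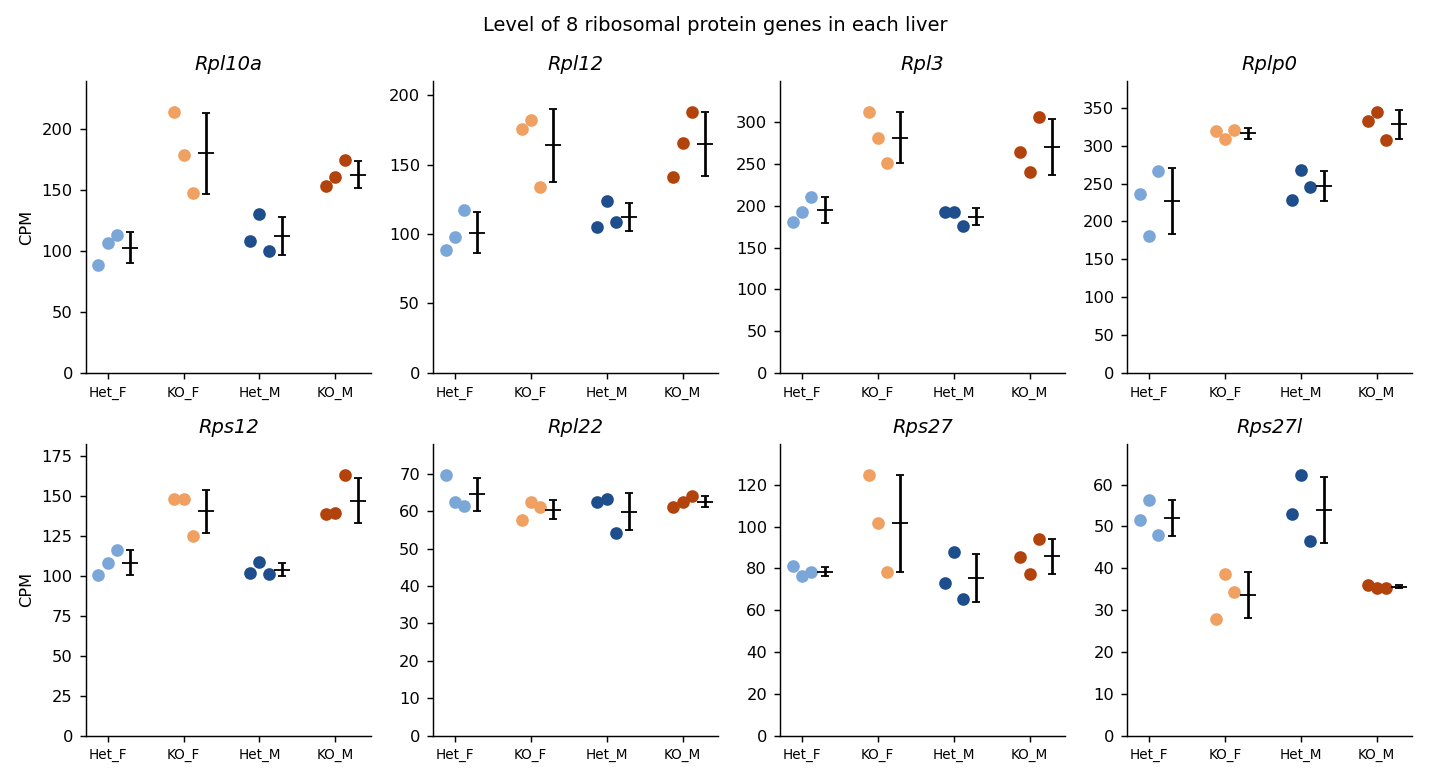
CPM (y axis, from 0) of 8 ribosomal protein genes in each liver of the 4 groups (x axis); points are livers, dashes with bars are the mean and SD of 3 livers. Rpl10a, Rpl12, Rpl3, Rplp0 and Rps12 are higher in every KO liver than in any Het liver, Rpl22 and Rps27 overlap, and Rps27l is lower in every KO liver (27.9 to 38.7 CPM) than in any Het liver (46.5 to 62.3 CPM).

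The stalk, formed by RPLP0 with dimers of RPLP1 and RPLP2, recruits the translational GTPases, and all 3 of its genes were called higher. Rplp0 ranged from 180 to 268 CPM in Het (median 240) and from 308 to 344 CPM in KO livers (median 321), with a log2 fold change of 0.44 ± 0.10 (adjusted p = 0.0114). For Rplp2 the ranges were 58.1 to 69.7 CPM (median 63.3) and 74.7 to 94.3 CPM (median 82.6), and the log2 fold change was 0.39 ± 0.09 (adjusted p = 0.00778). Neither gene overlapped between the genotypes. Rplp1 did overlap, at 138 to 198 CPM in Het (median 170) and 191 to 239 CPM in KO livers (median 213). It rose by 0.33 ± 0.10 (adjusted p = 0.0319), and its call was lost without Het_F_111 or Het_F_115, Het_M_119 or Het_M_137, KO_F_112, or KO_M_118 or KO_M_136, with an adjusted p of up to 0.0764.

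Of the 5S particle, in which RPL5 and RPL11 join the large subunit together with 5S ribosomal RNA, Rpl5 was called and Rpl11 was not. Rpl5 had 155 to 184 CPM in Het (median 167) and 200 to 273 CPM in KO livers (median 229), without overlap, and a log2 fold change of 0.46 ± 0.10 (adjusted p = 0.00881). Rpl11 had 110.9 to 135 CPM in Het (median 120) and 129 to 153 CPM in KO livers (median 143). Its log2 fold change was 0.24 ± 0.09 (adjusted p = 0.0641), and it passed the threshold without Het_M_125 or KO_F_123, and with DESeq2 (adjusted p = 0.0247), the filter of 10 reads in every sample, or limma with 7SL and 7SK left out. The difference between both genes was not tested.

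The peptide exit tunnel and its rim, where the new chain leaves the large subunit, had the lowest median of the 4 groups by role, which was not tested against the others. Of 8 such genes, 2 were called higher, and the log2 fold changes ran from -0.02 to 0.33 with a median of 0.18. Rpl17 rose by 0.33 ± 0.09 (adjusted p = 0.018), from 124 to 147 CPM in Het to 143 to 181 CPM in KO livers, which overlapped at the edge. Rpl39, a short protein that lines the tunnel, rose by 0.29 ± 0.09 (adjusted p = 0.0328), from 37.8 to 47 CPM in Het to 48.7 to 60.8 CPM in KO livers, without overlap. The Rpl39 call was lost without Het_F_111 or Het_F_126, Het_M_119 or Het_M_137, KO_F_108 or KO_F_112, or KO_M_118 or KO_M_136, with an adjusted p of up to 0.0794, and with no filter on low counts (adjusted p = 0.0581). Rpl35 (0.29 ± 0.10, adjusted p = 0.0518), Rpl31 (0.18 ± 0.09, adjusted p = 0.151) and Rpl19 (0.17 ± 0.08, adjusted p = 0.14) were not called. Rpl35 passed the threshold without Het_F_126 or KO_F_123 and in 6 of the alternatives that kept all livers, among them DESeq2 (adjusted p = 0.0316) and RLE scaling (adjusted p = 0.0477). Rpl19 passed with DESeq2 (adjusted p = 0.0487). Rpl23a, which together with Rpl35 forms the docking site of the signal recognition particle, had 0.08 ± 0.09 (adjusted p = 0.569). Rpl26 had 0.04 ± 0.08 (adjusted p = 0.77). Rpl22 had 69.7, 62.4 and 61.5 CPM in Het_F, 62.5, 63.2 and 54.1 CPM in Het_M, 57.6, 62.5 and 61.2 CPM in KO_F, and 61.1, 62.5 and 64 CPM in KO_M. All 12 values of Rpl22 lay between 54.1 and 69.7 CPM. Its log2 fold change of -0.02 ± 0.08 (adjusted p = 0.902) changed sign under several alternatives, among them limma on TPM. In TPM, Rpl22 was at 92.3 to 106.6 in KO_M against 77.9 to 88.5 in Het_M, while the female groups overlapped. Outside this group, Rpl35a had the lowest value among the highly expressed genes after Rps27l, at -0.18 ± 0.08 (adjusted p = 0.13); it was chosen after its values were seen.

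Of 6 genes described here along the mRNA channel of the small subunit, 3 were called higher and all 6 fold changes were above 0, from 0.18 to 0.40. Rps9 had 143 to 175 CPM in Het (median 150) and 180 to 233 CPM in KO livers (median 202), and rose by 0.40 ± 0.09 (adjusted p = 0.011). Rps14 rose by 0.37 ± 0.08 (adjusted p = 0.00912), from 92.9 to 117 CPM in Het to 120 to 136.3 CPM in KO livers. Neither Rps9 nor Rps14 overlapped between the genotypes. Rps28 overlapped (45 to 63.4 and 60.3 to 83.1 CPM), and its rise of 0.35 ± 0.10 (adjusted p = 0.0315) was no longer called without Het_F_111 or Het_F_115, Het_M_119 or Het_M_137, KO_F_108 or KO_F_112, or KO_M_118 or KO_M_136, and with limma on log2(TPM + 1) (adjusted p = 0.0522). Rps2 (0.30 ± 0.12, adjusted p = 0.099), Rps3 (0.24 ± 0.09, adjusted p = 0.0801) and Rps26 (0.18 ± 0.10, adjusted p = 0.231) did not pass; Rps2 did so without Het_F_126, and Rps3 without Het_M_125 or with DESeq2 (adjusted p = 0.036).

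Rps27a, whose product is ubiquitin fused to a small subunit protein, had 86.2 to 107.8 CPM in Het (median 97.9) and 104 to 141 CPM in KO livers (median 122.3). It rose by 0.33 ± 0.10 (adjusted p = 0.0389), and the call was lost without any 1 liver other than Het_M_125, KO_F_123 or KO_M_122 (adjusted p of up to 0.0934) and with the length-scaled or scaled counts or limma on TPM (up to 0.0659). Rps6 had 178 to 224 CPM in Het and 211 to 283 CPM in KO livers, and its rise of 0.38 ± 0.10 (adjusted p = 0.0212) was lost without Het_M_137 or without KO_M_136. Rps19, the gene most often mutated in Diamond-Blackfan anaemia, had 0.24 ± 0.09 and was not called (adjusted p = 0.0843). It passed with 5 alternatives, the length-scaled and the scaled counts and limma on TPM, where its log2 fold change was between 0.34 and 0.36 (adjusted p between 0.0212 and 0.0307).

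Rps27l was the 1 gene of the 79 called lower. Its protein differs little from that of Rps27, and it is known as a target of p53. The levels of Rps27l were 51.6, 56.4 and 48 CPM in Het_F, 53, 62.3 and 46.5 CPM in Het_M, 27.9, 38.7 and 34.2 CPM in KO_F, and 36, 35.4 and 35.3 CPM in KO_M. All KO livers were below all Het livers. The log2 fold change was -0.61 ± 0.10 (0.653-fold, adjusted p = 0.00186), and it was called in females (-0.63 ± 0.14, adjusted p = 0.0204) as well as in males (-0.60 ± 0.14, adjusted p = 0.0274), where the KO_M livers were almost identical. The call over both sexes remained without any single liver and under every alternative. Rps27 had 81, 76.4 and 78.2 CPM in Het_F, 72.9, 88.1 and 65.4 CPM in Het_M, 124.7, 102 and 78.2 CPM in KO_F, and 85.6, 77.5 and 94.1 CPM in KO_M. KO_F_108 was the highest and the groups overlapped. The log2 fold change of 0.28 ± 0.12 was not called (adjusted p = 0.114), although it passed without KO_F_123. Expressed per transcript length, Rps27l made up 26.5%, 29.4% and 25.7% of the summed TPM of both genes in Het_F and 29.2%, 28.5% and 28.7% in Het_M. It made up 11.3%, 17.7% and 20% in KO_F and 19.2%, 20.6% and 17.6% in KO_M. The share was thus lower in every KO liver, at 28% ± 1.53 in Het and 17.7% ± 3.36 in KO (SD, n = 6 each). Rps27l lies on chromosome 9 (GRCm39, 66853340 to 66856808, plus strand) and Rps27 on chromosome 3 (90119819 to 90120977, minus strand), and both are protein-coding. Of the 31-base words of their transcripts, 28% of those of Rps27l and 63.9% of those of Rps27 also occur in other annotated genes.

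The other paralogs gave little to compare. Rpl3l was at no more than 0.0569 CPM in any liver, and Rpl39l was at 0 in all livers but KO_F_112 (0.0308 CPM), so neither was detectable above a few counts beside Rpl3 and Rpl39. Rps4l had 4.93 to 14.4 CPM in Het and 5.21 to 8.34 CPM in KO livers, and its log2 fold change was -0.33 ± 0.23 (adjusted p = 0.332). Its X-linked counterpart Rps4x had 145 to 181 CPM in Het and 175 to 234 CPM in KO livers, and rose by 0.36 ± 0.10 (adjusted p = 0.0221). The Rps4x call was lost without Het_F_111, Het_M_137 or KO_M_136.

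In females alone, 11 of the 79 genes were called higher, beside 5.71% of all tested genes, and Rps27l was called lower, beside 5.61%. The median log2 fold change was 0.32, with an SE of 0.13. In males alone, 4 genes were called higher, beside 4.42% of all tested genes, and Rps27l was called lower, beside 3.07%. Here the median was 0.27, also with an SE of 0.13. In males the share of the 79 genes called higher, 5.06%, was thus near that of all genes. The fold change was above 0 in both sexes for 74 genes and below 0 in both for 3. Rpl3 and Rps27l were called in both sexes. The fold changes of the 79 genes correlated between females and males, whose livers are separate, with Pearson's r = 0.845 across genes. Among the 75 genes above 50 TPM other than Rps27l, r was 0.768. Genes of 1 library are not independent, and this is a description only.

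**Figure D4:**
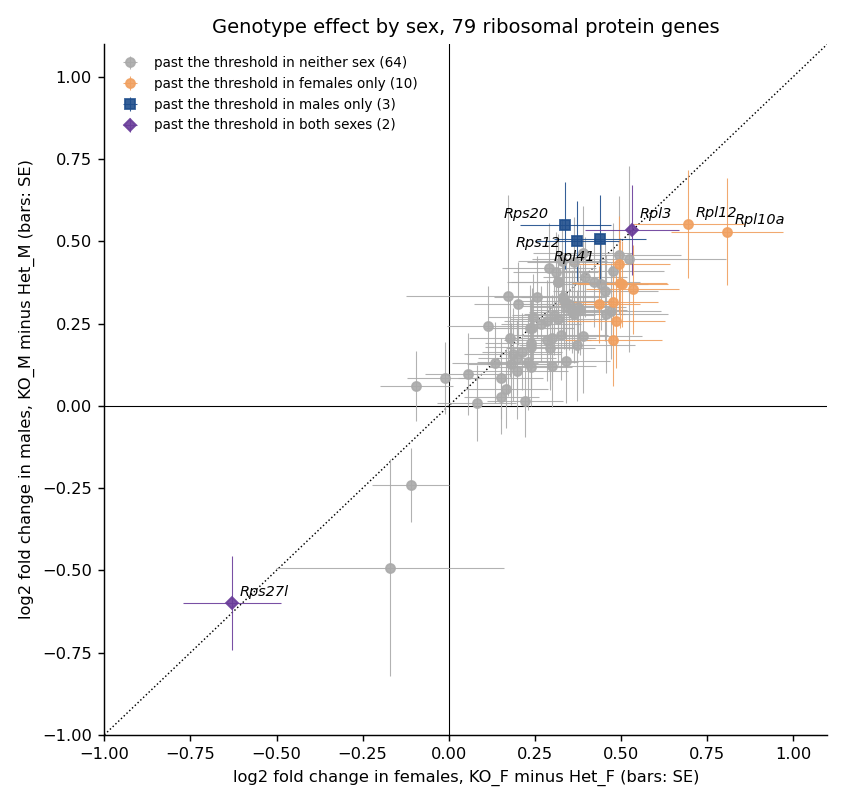
log2 fold change of KO over Het in females (x axis) and in males (y axis) for the 79 tested genes; bars are SEs, the dotted line marks equal changes, and colour and shape give the sex in which the gene passed an adjusted p of 0.05. Of the 79 genes, 74 lie in the upper right quadrant, and Rps27l stands apart at -0.63 and -0.60.

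Rpl10a and Rpl12 had the smallest p among the 10 genes called in females and not in males. For Rpl10a the log2 fold change was 0.81 ± 0.16 in females (adjusted p = 0.0131) and 0.53 ± 0.16 in males (adjusted p = 0.0688). For Rpl12 it was 0.70 ± 0.16 in females (adjusted p = 0.0225) and 0.55 ± 0.16 in males (adjusted p = 0.0616). Conversely, Rps20, Rps12 and Rpl41 were called in males and not in females. Rps20, which sits in the small subunit head, had 0.55 ± 0.13 in males (adjusted p = 0.028) and 0.34 ± 0.13 in females (adjusted p = 0.114). Rps12 had 0.50 ± 0.12 in males (adjusted p = 0.0287) and 0.37 ± 0.12 in females (adjusted p = 0.0671). None of these differences between the sexes was itself called. The interaction test, which asks whether the KO effect differs between the sexes, called 0 of the 79 genes, beside 0.0775% of all tested genes. By edgeR the smallest unadjusted p was 0.188, leaving 0 of the 79 below 0.05, and DESeq2 called 0 as well. The interaction estimates ran from -0.32 to 0.21, with a median SE of 0.19, and the median rise of 0.29 was itself under 2 of these SEs.

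The counts within a sex rested on single livers. The female count of 12 fell to 1 without Het_F_111, Het_F_115 or KO_F_108, to 2 without KO_F_112, and to 5 without Het_F_126, and rose to 24 without KO_F_123. It was 6 without Het_M_119 or KO_M_118, livers of the other sex. The male count of 5 fell to 0 without Het_M_119, KO_M_118 or KO_M_136, to 1 without Het_M_137, to 2 without Het_M_125 and to 3 without KO_M_122. It was 10 without KO_F_108 and 8 without KO_F_123. Relative to the Het mean of its sex, the median gene was at 1.098-fold in KO_F_123, 1.30-fold in KO_F_112 and 1.33-fold in KO_F_108, and between 1.16-fold and 1.28-fold in the KO_M livers. Among the Het livers it ran from 0.924-fold to 1.11-fold, so that Het_M_125 was above KO_F_123 by this measure.

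No difference between males and females was called in these genes. The sex comparison by edgeR called 0 of the 79, beside 1.05% of all tested genes. Without adjustment 0 of them had p under 0.05, and DESeq2 called 0. The estimates ran from -0.15 to 0.28 on the log2 scale, the latter for Rps4l. The 4 X-linked genes, of which females carry a second, largely silenced copy, had log2 differences (males minus females) of -0.03 ± 0.10 (Rpl10), 0.07 ± 0.09 (Rpl36a), -0.04 ± 0.09 (Rpl39) and -0.01 ± 0.10 (Rps4x). Between the genotypes, Rpl36a rose by 0.39 ± 0.09 (adjusted p = 0.0119; Het 46.3 to 58.6 CPM, KO 58.9 to 78.4 CPM) and Rpl10 had 0.17 ± 0.10 (adjusted p = 0.237; Het 274 to 355 CPM, KO 308 to 379 CPM). Rpl13a, the other gene of highest TPM beside Rplp1, rose by 0.34 ± 0.10 (adjusted p = 0.0274) without overlap, and its call was lost without Het_F_111, Het_F_115, Het_M_119, Het_M_137 or KO_M_136.

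Ribosomal protein genes are rich in near-identical copies, and reads can be shared among them. Over the 82 genes, a median of 42.4% of the 31-base words of the transcript occurred in another annotated gene, and in 31 genes more than 50% did. Of these 31 genes, 16 were called higher and the median log2 fold change was 0.34; of the 48 tested genes with fewer shared words, 24 were called and the median was 0.27. The 309 genes named as pseudogene copies held between 0.714% and 1.18% of the counts of the 82 genes in a liver, and with their counts added to the parent genes 42 genes were called. The 40 genes called higher and the 38 not called had medians of 166 and 154 TPM in level and of 45% and 43.1% in shared words, and a tract near the start was found in 57.7% of 26 and 66.7% of 30 genes in the promoter table. Between log2 fold change and level, Spearman's rho was 0.096 across the 76 genes above 50 TPM.

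Ribosomal proteins with other names moved in a mixed way. Of 8 genes, 4 were called higher and 1 lower, beside 11.9% and 10.7% of all tested genes, with a median log2 fold change of 0.29. Rpsa, the laminin receptor homolog of the small subunit, had 196, 167 and 266 CPM in Het_F, 197, 219 and 212 CPM in Het_M, 425, 370 and 299 CPM in KO_F, and 250, 311 and 397 CPM in KO_M. It rose by 0.70 ± 0.15 (adjusted p = 0.00665), with 1 Het_F liver inside the KO range. Rack1, a scaffold on the small subunit head, rose by 0.40 ± 0.09 (adjusted p = 0.0102) without overlap. Rps3a1 (0.31 ± 0.10, adjusted p = 0.0382) and Fau, a ubiquitin-like fusion (0.28 ± 0.08, adjusted p = 0.033), were also called. Rpl7l1, a relative of Rpl7 linked to ribosome assembly, fell by 0.47 ± 0.10 on the log2 scale (adjusted p = 0.00578), with 40.7 to 48.3 CPM in Het and 27.2 to 36.3 CPM in KO livers. Rpl36al, the intronless relative of Rpl36a, had -0.25 ± 0.09 (adjusted p = 0.0558), with every KO liver below every Het liver. Rpl22l1 had 0.35 ± 0.16 (adjusted p = 0.142).

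Of 20 other mRNAs known for a TOP tract, mostly elongation and initiation factors, 4 were called higher and 0 lower, beside 11.9% and 10.7% of all tested genes. The median log2 fold change was 0.08. The 4 called were Hnrnpa1 (0.52 ± 0.15, adjusted p = 0.0296), the elongation factor Eef2 (0.40 ± 0.12, adjusted p = 0.0367), the poly(A)-binding protein Pabpc1 (0.31 ± 0.08, adjusted p = 0.0224) and Eef1b2 (0.28 ± 0.09, adjusted p = 0.0405). Of 34 further initiation and elongation factors, 1 was called higher and 2 lower, beside the same shares of all tested genes, with a median of -0.04. Eif1a had 0.67 ± 0.17 (adjusted p = 0.0177), whereas the helicase Eif4a2 fell by 0.34 ± 0.10 (adjusted p = 0.0304) and Eef2k, the kinase that inhibits EEF2, fell by 1.28 ± 0.26 (adjusted p = 0.0063).

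Counts for genes that make ribosomes are given beside the shares of all tested genes, 11.9% called higher and 10.7% lower. Of 16 genes of RNA polymerase I and its factors, 1 was called higher, Taf1b (0.75 ± 0.16, adjusted p = 0.00733), and the median was 0.09. Of 43 assembly factors, 3 were called higher and 1 lower, with a median of 0.12. Eif6, which keeps new large subunits from joining small ones too early, had 36.8, 41.3 and 32.6 CPM in Het_F, 33.3, 34.7 and 33 CPM in Het_M, 52.2, 53.9 and 51.7 CPM in KO_F, and 49.2, 46.7 and 45.5 CPM in KO_M. The KO livers were all above the Het livers, and Eif6 was called over both sexes (0.50 ± 0.08, adjusted p = 0.00121) and within each. Nob1, the nuclease that finishes small subunit ribosomal RNA, rose by 0.58 ± 0.15 (adjusted p = 0.0151), as did Nsa2 by 0.24 ± 0.08 (adjusted p = 0.0438), and Nop10 of the pseudouridylation complexes fell by 0.25 ± 0.07 (adjusted p = 0.0331).

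Of 26 regulators of growth and of ribosomal protein mRNA translation, 5 were called higher and 4 lower, beside 11.9% and 10.7% of all tested genes. The median was -0.01. Sesn1, a p53 target that restrains mTORC1, rose by 1.21 ± 0.16 (adjusted p = 0.000545). Pdcd4, an inhibitor of the helicase EIF4A, fell by 0.69 ± 0.10 (adjusted p = 0.00116), and Deptor, an inhibitor of mTOR, fell by 0.65 ± 0.12 (adjusted p = 0.00421). Also called were Ddit4, Eif4ebp3, Myc and Rictor as higher and Eif4ebp2 and Rptor as lower. Larp1 had 0.19 ± 0.10 and was not called (adjusted p = 0.182).

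Mitochondrial ribosomal proteins, which serve the separate ribosome of mitochondria, went the other way. Of 78 genes, 2 were called higher and 22 lower, beside 11.9% and 10.7% of all tested genes. The median log2 fold change was -0.20, and 8 of 78 fold changes were above 0. Their summed levels did not overlap, at 1384 to 1536 CPM in Het and 1148 to 1317 CPM in KO livers. Mrpl1 fell by 0.71 ± 0.10 (adjusted p = 0.000685), Mrpl39 by 0.55 ± 0.08 (adjusted p = 0.00114) and Mrpl14 by 0.87 ± 0.15 (adjusted p = 0.00235), while Mrpl23 (0.46 ± 0.10, adjusted p = 0.00803) and Dap3 (0.29 ± 0.09, adjusted p = 0.0346) rose. Every KO liver was below every Het liver for the 3 that fell. These lists are described by their counts, and nothing is tested for a list as a whole.

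**Figure D5:**
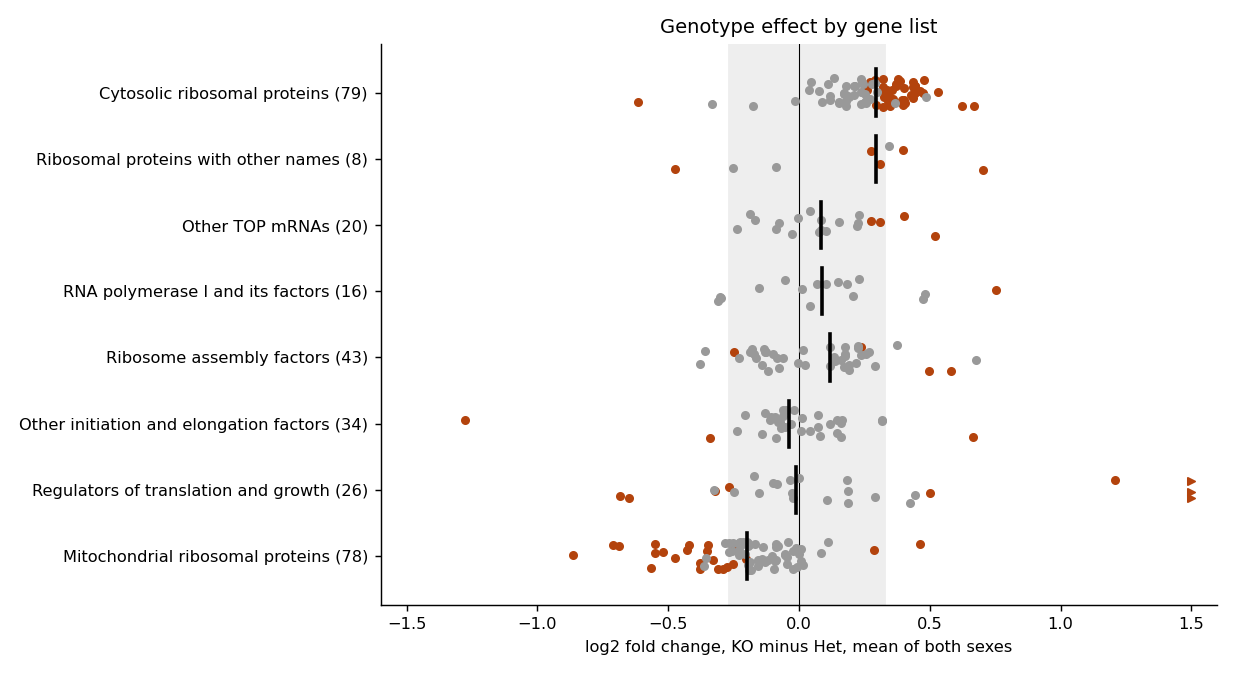
log2 fold change of KO over Het, as the mean of both sexes (x axis), for each tested gene of the cytosolic ribosomal proteins and of 7 further lists (y axis, number of genes in brackets); bars are list medians, coloured points passed an adjusted p of 0.05, grey shading spans the quartiles of all tested genes, and triangles at the edge are 3 genes above 1.5. The medians are 0.29 for the cytosolic and -0.20 for the mitochondrial ribosomal proteins.

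Each liver had between 30044812 and 43634073 estimated counts in genes. Xpa had 3.13 to 6.32 CPM in Het and 0.99 to 1.82 CPM in KO livers, lower in every KO liver. Ercc8, lacking in all 12 mice, had 5.12 to 8.76 CPM in Het and 14.7 to 34.3 CPM in KO livers; the cause was not tested. Hepatocyte markers, led by albumin (Alb), summed to 63702 to 87430 CPM in Het and 79077 to 133898 CPM in KO livers, with 1 of 6 called higher and 2 lower. Stellate cell markers were lower in KO livers, with 3 of 5 called and a summed level of 230 to 446 CPM in Het against 114 to 226 CPM in KO. Of 5 endothelial markers 2 were called lower (147 to 277 CPM in Het, 110.6 to 189 CPM in KO), and of 5 tested erythroid markers 1 (133 to 530 CPM and 107 to 257 CPM). The erythroid call was Alas2, with means of 20 CPM in Het_F, 97.6 CPM in Het_M, 12.1 CPM in KO_F and 22.3 CPM in KO_M. No globin gene of this list was called. Among markers of other immune cells, 2 of 5 for Kupffer cells (196 to 307 CPM and 190 to 387 CPM), 2 of 6 for monocytes and macrophages (10.2 to 29.7 CPM and 16.5 to 36.8 CPM) and 1 of 4 tested for neutrophils (0.52 to 3.49 CPM and 1.66 to 3.5 CPM) were called higher. The Kupffer cell calls were Vsig4 and Cd5l. The Kupffer cell sum also holds C6, not called, with means of 29.4 CPM in Het_F, 202 CPM in Het_M, 39.1 CPM in KO_F and 94.9 CPM in KO_M. None of 6 T and NK cell markers (1.57 to 3.54 CPM and 0.96 to 2.84 CPM), 5 B and plasma cell markers (1.43 to 5.73 CPM and 1 to 3.82 CPM) or 5 cholangiocyte markers (2.9 to 12.2 CPM and 4.56 to 10 CPM) was called. Among the defining markers, Ly6g was at 0 in 9 of 12 livers and Cd3d in 2. The part of these cell types in the rise of ribosomal protein mRNA was not tested.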

How the data were processed

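Livers of 12 mice (3 per genotype and sex, mapped from the labels) were analysed. The authors sequenced stranded total RNA depleted of ribosomal RNA, used STAR 2.7.9a for alignment (GRCm39) and Salmon 1.10.1 for the genes of GENCODE M34. The deposited tables hold estimated counts per gene (12% of values are not whole, so they were rounded), further estimated counts scaled from TPM, and TPM, whose fixed total keeps no record of depth. No column came from another sample. A gene was tested where 3 or more livers had 5 or more reads at the median library size, with edgeR 4.0.16 (R 4.3.3, TMM, robust quasi-likelihood F test, prior count 2) on a model with a mean per group. A call needed a Benjamini-Hochberg adjusted p under 0.05 over all 19355 genes. SEs come from the F statistic. The fit was tested on simulated data. Alternatives used DESeq2 1.42.0, limma 3.58.1 on log2(TPM + 1) and log2(TPM + 0.1), other scalings, filters, count tables and models, and each liver left out in turn. The genes, lists and tests were chosen with earlier results of these data known. Genes were named by a rule: the 5 largest called rises and falls, the 2 of smallest p called in 1 sex, the 3 of highest TPM, those of set roles, paralogs and X-linked genes, and up to 3 genes of smallest p per list. Others are said to have been chosen later or complete a small count. Nothing says that the livers came from separate litters, so p-values measure the spread between these mice. Gene positions and shared 31-base words come from GENCODE M39 on GRCm39, promoter sequence from RefSeq on GRCm38.p6. The total counts per liver limit the precision of low genes, and intervals were not computed for them. Some genes are not reported here by name.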

Additional observations from a re-analysis of the deposited data

How the results depend on the processing

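The number of cytosolic ribosomal protein genes called over both sexes (41) lay between 37 and 52 under the 17 alternatives that kept all livers, and between 24 and 49 with 1 liver left out. The female count (12) was 5 with library size scaling only, 24 with DESeq2, 4 with limma on log2(TPM + 1) and on log2(TPM + 0.1), 5 with 7SL and 7SK left out, and 1 to 24 with 1 liver left out. The male count (5) was 10 with upper quartile scaling, 13 with library size scaling only, 13 with DESeq2, 9 with limma on log2(TPM + 0.1), 20 with 7SL and 7SK left out, and 0 to 10 with 1 liver left out. The cause was not tested. The median log2 fold changes, 0.29 over both sexes, 0.32 in females and 0.27 in males, stayed between 0.26 and 0.34, 0.23 and 0.40, and 0.22 and 0.37. The ratio of summed TPM stayed between 1.20 and 1.28. Of 1073 refitted values of 37 named genes, 993 kept direction and side of the threshold, 48 lost and 23 gained a call, and 9 reversed. All 9 were of Rpl22. They were 0.00019 with at least 10 reads in every sample, 0.10 with length-scaled counts and 0.11 with scaled counts. With limma they were 0.12 at either pseudocount and 0.11 with 7SL and 7SK left out. The rest came from fits with 1 liver left out, at up to 0.013. Over all such fits Rpl22 ranged from -0.051 to 0.013. No paired analysis was possible because the replicate numbers are mouse numbers and no groups share one. No group of livers held an outlier by Dixon's test of summed TPM, which covered the 6 livers of each genotype. Depth limits Rpl3l, Rpl10l and Rpl39l, which had at most a few reads per liver.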
